A study of Mus musculus with 16 samples.

Results

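Among 36066 fibroblasts of the mouse thoracic aorta, 2537 cells (7.03%) held unique molecular identifiers (UMIs, 1 per captured RNA molecule) of at least 2 of the 4 genes Cnmd, Inmt, Ggt5 and Bmper. These cells are called the Cnmd/Inmt/Ggt5/Bmper fibroblasts, and the 33529 remaining fibroblasts are called the other fibroblasts. A cell counted as a fibroblast when it held at least 5 UMIs of Dcn, the small matrix proteoglycan decorin, and more UMIs of Dcn than of Myh11, the smooth muscle myosin heavy chain. The fibroblasts were taken from 50858 cells that passed the limits on genes, UMIs and mitochondrial RNA given in the study's methods. The 16 libraries held between 2 and 485 of these cells each.

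The libraries were droplet 3' RNA sequencing of dissociated thoracic aorta, with 1 male mouse on a 129S6/SvEv background per library. All mice carried Myh11-CreER, a tamoxifen-activated recombinase driven by a smooth muscle promoter and placed on the Y chromosome, and all were given tamoxifen from 6 weeks of age. The control group, Smad3+/+;Myh11-CreER, is written Smad3+/+ here, and the group with loxP sites on both Smad3 alleles, Smad3 lox/lox;Myh11-CreER, is written Smad3SmKO. At 18 weeks after deletion (24 weeks of age) there were 5 Smad3+/+ libraries and 7 labelled Smad3SmKO, and at 10 weeks (16 weeks of age) there were 2 of each. The Cre promoter is that of smooth muscle, so the fibroblasts described here were not the cells meant to lose Smad3, and any difference by genotype in them would be a difference in cells next to the target. Some mice also carried a GFP tracer of smooth muscle. By the labels these were all mice of batches 5 and 6 at 18 weeks and, at 10 weeks, the Smad3+/+ mice only. Digestion took 30 min in batches 1, 2 and 3 and 60 min in batches 4, 5 and 6. All 10-week libraries formed batch 4, so time and batch cannot be told apart, and batch 5 held only libraries labelled Smad3SmKO.

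Adventitial fibroblasts lie in the outer coat of the artery, where they lay down collagen and matrix glycoproteins and release chemokines and complement proteins that recruit and instruct immune cells. The 4 genes of the rule have unlike roles. Cnmd encodes chondromodulin, an anti-angiogenic glycoprotein of cartilage, tendon and heart valves. Inmt encodes an enzyme that methylates indole amines. Ggt5 encodes a gamma-glutamyl transferase that trims glutathione conjugates and turns leukotriene C4 into leukotriene D4. Bmper encodes a secreted protein that binds bone morphogenetic proteins (BMPs) outside the cell. Cxcl14, a chemokine, is a marker of these cells that the rule did not use.

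In the genome build mm10 used for the files, with GENCODE vM21 positions, Cnmd lies at chr14:79637690-79662170 on the minus strand and Inmt at chr6:55170626-55175043 on the minus strand. Ggt5 lies at chr10:75589340-75617200 and Bmper at chr9:23223076-23485200, both on the plus strand. Cxcl14 lies at chr13:56288643-56296551 on the minus strand. The genes that set these cells apart from the other fibroblasts included several of the Ifi200 cluster on chromosome 1, which encode DNA-sensing proteins induced by interferons. The windows from 250 bases before to 50 bases after the start are shown for 3 genes of that cluster and for Cxcl14. All 4 hold the match marked below, so they are examples and not a count. The windows of the other genes of the cluster are not shown. They come from RefSeq on GRCm38.p6, at chr1:174031706-174032005 for Ifi205, chr1:173741760-173742059 for Ifi207, chr1:173912997-173913296 for Ifi211 and chr13:56296502-56296801 for Cxcl14, and all 4 are read on the minus strand, 5′ to 3′. Capitals mark each match to GAAANNGAAA, the core of the interferon-stimulated response element, or to its reverse complement. The windows follow, 1 per line.
Ifi205: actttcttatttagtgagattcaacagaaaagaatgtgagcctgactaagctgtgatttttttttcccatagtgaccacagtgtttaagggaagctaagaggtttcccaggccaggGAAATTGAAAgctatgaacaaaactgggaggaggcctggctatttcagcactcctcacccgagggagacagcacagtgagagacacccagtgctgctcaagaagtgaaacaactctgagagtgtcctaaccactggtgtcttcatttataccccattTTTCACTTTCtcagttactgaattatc
Ifi207: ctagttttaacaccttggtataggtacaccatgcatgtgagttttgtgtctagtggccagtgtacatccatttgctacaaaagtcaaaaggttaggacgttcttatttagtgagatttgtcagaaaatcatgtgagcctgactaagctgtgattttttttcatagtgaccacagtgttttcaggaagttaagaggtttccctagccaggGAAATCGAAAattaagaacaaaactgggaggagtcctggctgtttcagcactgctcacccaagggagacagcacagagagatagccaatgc
Ifi211: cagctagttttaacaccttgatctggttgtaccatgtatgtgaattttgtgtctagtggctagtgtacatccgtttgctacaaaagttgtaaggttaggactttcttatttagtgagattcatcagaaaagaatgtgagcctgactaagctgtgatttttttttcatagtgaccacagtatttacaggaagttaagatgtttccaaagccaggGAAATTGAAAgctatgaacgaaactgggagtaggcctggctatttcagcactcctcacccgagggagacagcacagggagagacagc
Cxcl14: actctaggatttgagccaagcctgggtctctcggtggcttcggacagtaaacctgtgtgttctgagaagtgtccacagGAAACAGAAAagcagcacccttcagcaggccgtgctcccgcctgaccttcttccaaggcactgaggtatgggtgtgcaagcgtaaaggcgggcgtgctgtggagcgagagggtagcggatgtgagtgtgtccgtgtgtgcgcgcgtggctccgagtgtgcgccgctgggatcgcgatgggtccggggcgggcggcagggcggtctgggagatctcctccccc

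The 3 Ifi windows carried the match at positions -134, -41 and -37 from the start for Ifi205, Ifi207 and Ifi211, and Ifi205 held a further match on the opposite strand at position 23. The match in Cxcl14 began at position -172. Of 32851 promoter windows in the table, 1131 (3.44%) held the letters on either strand. A match is a run of letters and not a measured binding site.

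Each member was found by the UMIs of the rule genes, so their levels describe the choice. Bmper was detected in 83.8% of the 2537 cells, Ggt5 in 62.0%, Inmt in 60.9% and Cnmd in 17.1%. In the other fibroblasts the shares were 14.1%, 2.30%, 11.7% and 0.438% in the same order. Cnmd, which leads the working name of these cells, was therefore seen in a minority of them. Cxcl14 was detected in 28.3% of the Cnmd/Inmt/Ggt5/Bmper fibroblasts and in 7.58% of the other fibroblasts. At an even depth of 2000 UMIs per cell the shares with Cxcl14 were 20.9% and 4.46%.

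The pair Inmt and Bmper alone made up 745 members (29.4%), Ggt5 and Bmper 684 (27.0%), Inmt and Ggt5 338 (13.3%), and the trio Inmt, Ggt5 and Bmper 336 (13.2%). Cnmd with Bmper made up 149 cells, Cnmd with Ggt5 and Bmper 134, Cnmd with Inmt 40, Cnmd with Inmt and Bmper 29, Cnmd with Ggt5 24 and Cnmd with Inmt and Ggt5 8. All 4 genes were found in 50 cells. Cnmd, Ggt5 and Bmper were found in the same cell more often than the product of their shares within each library. Cnmd and Ggt5 were together in 216 fibroblasts, 4.12 times the product. The ratio was 2.72 for Cnmd with Bmper, 2.12 for Ggt5 with Bmper and 1.80 for Inmt with Ggt5. Inmt and Bmper, the commonest pair among the members, were together in 1160 fibroblasts, 1.04 times the product. With cells thinned to 2000 UMIs the ratios were 5.23, 4.14, 2.58, 2.32 and 1.16. The ratios are a description over 36066 cells of 16 libraries.

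Pooled over all libraries, fibroblasts with 0 of the 4 genes numbered 23950 and had a median of 7384 UMIs, those with 1 gene numbered 9579 with a median of 10150, and those with 2, 3 and 4 genes numbered 1980, 507 and 50 with medians of 12660, 15860 and 16060. Cells just outside the threshold, with 1 gene, held a median of 1 UMI of the rule genes, and cells just inside, with 2 genes, a median of 4. When every cell was thinned to 2000 UMIs, 521 cells met the rule. The median UMIs of the members lay above that of the other fibroblasts in 12 of 12 libraries at 18 weeks and below it in 4 of 4 at 10 weeks. Mitochondrial shares were lower in the members in 12 of 12 and 3 of 4 libraries.

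UMIs of at least 2 of the rule genes were rare in cells gated as other kinds. The endothelial and leukocyte gates required under 5 UMIs of Dcn, and the smooth muscle gate more UMIs of Myh11 than of Dcn. No cell of these gates could therefore be a member. The counts do not show how many members held RNA of other cell types. Among cells gated on Myh11 as smooth muscle, 1 of 8950 (0.0112%) had UMIs of 2 of the genes. None of 1476 endothelial cells did, and 8 of 3041 leukocytes (0.263%) did. Ggt5 alone was not restricted to fibroblasts, since 8.35% of leukocytes held it, against 6.50% of all fibroblasts, at median depths of 5646 and 8459 UMIs. Cxcl14 was found in 27.5% of leukocytes and 9.04% of fibroblasts. Its level, in counts per 1000000 UMIs (CPM), was 143.4 CPM in the former and 179.2 CPM in the latter.

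Besides the rule genes, the members held more RNA for chemokines, complement and lipid-handling proteins than the other fibroblasts, and less for contractile proteins and several targets of TGF-beta. Counts were summed per library over the members and over the other fibroblasts, and compared as log2 ratios of CPM plus 5 in the 15 libraries with at least 10 members. Genes of the same cells were used to choose the members, so no test was made. Of 7937 genes with a mean of at least 10 CPM, 45 (0.567%) had a median log2 ratio of 1 or more and were higher in every library, and 68 (0.857%) were at -1 or less and lower in every library. Without regard to size, 192 genes (2.42%) were higher and 353 (4.45%) lower in every library. The median over all 7937 genes was -0.06.

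Cxcl14, a chemokine of resting tissues, had the highest ratio outside the rule genes, with a median log2 ratio of 3.16 and a range from 1.04 to 5.53. It reached 736 ± 693.5 CPM (SD, n = 15 libraries) in the members and 80.2 ± 92.8 CPM in the other fibroblasts. Its level in the members ran from 392 to 874 CPM in the 5 Smad3+/+ libraries of 18 weeks and from 286 to 2671 CPM in the 6 labelled Smad3SmKO. In the 10-week libraries it was 85.6 and 504.8 CPM in Smad3+/+ and 92.2 and 123.8 CPM in those labelled Smad3SmKO, so 3 of the 4 lay below every 18-week library. Ccl11, the eotaxin that draws eosinophils, was at 369 ± 174.5 CPM against 81.8 ± 74.5 CPM (log2 ratio 2.50).

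Ifi205, a member of the Ifi200 cluster, was at 114 ± 37.6 CPM against 17.4 ± 11.3 CPM (log2 ratio 2.52). Its levels in the members were 133, 136, 104, 116 and 117 CPM in the Smad3+/+ libraries of 18 weeks, replicates 1 to 5. In the libraries labelled Smad3SmKO of 18 weeks they ran from 77.1 to 164 CPM, and at 10 weeks from 21.4 to 161 CPM. The levels in the other fibroblasts of the same 15 libraries ran from 5.63 to 51.6 CPM. AW112010, a transcript induced in activated immune cells, had a log2 ratio of 2.01, and Ifi207 one of 1.58 (175 CPM against 53.4 CPM).

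The next genes were of matrix, lipid and enzyme function. Srpx, a sushi-repeat protein, was at 492 ± 134 CPM against 141 ± 28.5 CPM (log2 ratio 1.83), and lay between 322.7 and 755.5 CPM in every one of the 15 libraries. Lpl, the lipoprotein lipase that frees fatty acids from circulating particles, was at 468 ± 241 CPM against 127.8 ± 46.5 CPM (1.81). Aox3, an aldehyde oxidase, was at 44.2 CPM against 11.1 CPM (1.68). Apod, an apolipoprotein carrier of small lipids, was at 264 CPM against 77.3 CPM (1.59). Penk, the precursor of enkephalins, was at 364 CPM against 125 CPM (1.49), and Mme, the neprilysin that cleaves such peptides, at 77.8 CPM against 24.5 CPM (1.47). Sned1 (1.53) and Efemp1, also called fibulin-3 (1.49), are matrix glycoproteins. Fndc5, the precursor of irisin, had a ratio of 1.57, from 0.00 to 3.05 over the libraries.

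C3 and C4b, central complement components, were the most abundant of the complement genes that differed. C3 was at 1797 ± 1375 CPM in the members and 544.5 ± 344 CPM in the other fibroblasts (log2 ratio 1.61). Its levels in the members were 1373, 1276, 1566, 859 and 3516 CPM in the 5 Smad3+/+ libraries of 18 weeks. In the libraries labelled Smad3SmKO of 18 weeks they had a lowest value of 838 CPM and a highest of 5929 CPM, and in the 4 libraries of 10 weeks they ran from 753 to 1321 CPM. C4b was at 672 CPM against 224.5 CPM (1.57).

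**Figure D1:**
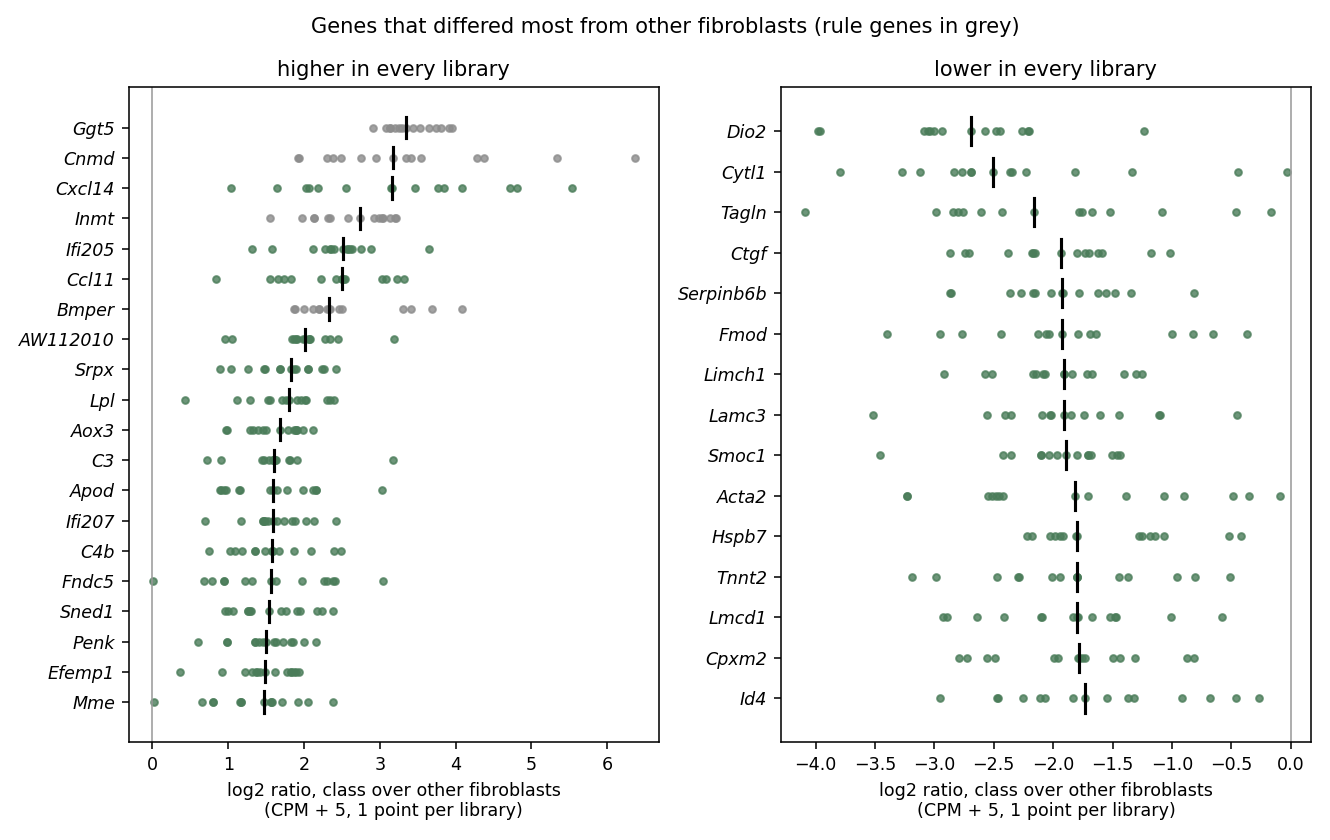
Log2 ratio of CPM plus 5 in the Cnmd/Inmt/Ggt5/Bmper fibroblasts over the other fibroblasts, 1 point per library (n = 15) and a black bar at the median, for the 20 genes with the highest and the 15 with the lowest medians among those that differed the same way in every library. The 4 rule genes are in grey, and Cxcl14 (median 3.16) and Ifi205 (2.52) led the rest.

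The genes that were lower included markers of other fibroblast groups and contractile genes. Dio2, which activates thyroid hormone, was at 10.8 ± 7.84 CPM in the members and 104 ± 49.6 CPM in the other fibroblasts (log2 ratio -2.69). Cytl1, a secreted protein of cartilage, was at 198 CPM against 692 CPM (-2.51), and Fmod, the collagen-binding fibromodulin, at 37.9 CPM against 119 CPM (-1.92). Ctgf, the connective tissue growth factor induced by TGF-beta and YAP, was at 670 ± 354 CPM against 2384 ± 710.5 CPM (-1.93). Lamc3 (-1.91), a laminin chain, Smoc1 (-1.89), a matrix calcium-binding protein, and Id4 (-1.73), an inhibitor of DNA binding, were also lower in all 15 libraries. So were Serpinb6b (-1.93), Limch1 (-1.91), Hspb7 (-1.80), Lmcd1 (-1.80), Tnnt2 (-1.80) and Cpxm2 (-1.78). Tnnt2, a marker on the heart muscle list, was at -0.39 when cells with other lineages' markers were left out, and was then higher in 1 library.

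Tagln and Acta2, contractile genes of smooth muscle, were at 369 CPM against 1089 CPM (log2 ratio -2.16) and at 368.5 CPM against 839 CPM (-1.82). The 7 smooth muscle markers summed to a median of 653 CPM in the members and 1888 CPM in the other fibroblasts, and the sum was lower in the members in all 15 libraries. The sum in the members ran from 126 to 678.5 CPM in Smad3+/+ and from 64.2 to 1463 CPM in Smad3SmKO at 18 weeks, with none of the 7 genes at 0. At 10 weeks it ran from 940 to 1395 CPM and from 1945 to 2871 CPM, with Myocd at 0 in the latter. The part of smooth muscle RNA from outside the cell in these differences was not tested.

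Of the lists of other cell types and the cell cycle, those of Schwann and mesothelial cells had a higher median sum in the members and the rest a lower one. The 9 leukocyte markers summed to a median of 38.5 CPM in the members and 98.8 CPM in the other fibroblasts, the 7 endothelial markers to 22.0 and 48.3 CPM, the 7 pericyte markers to 164 and 282 CPM, and the 6 heart muscle markers to 5.77 and 29.4 CPM. The 5 Schwann cell markers were higher in the members in 12 of 15 libraries, at medians of 10.4 and 4.28 CPM, and Sox10 and Kcna1 were at 0 in the members of every group. The medians were 1.08 and 1.40 CPM for 5 plasma cell transcripts, 3.22 and 1.15 CPM for 6 mesothelial markers, 0.257 and 0.960 CPM for 5 adipocyte markers and 8.56 and 12.6 CPM for 8 cell cycle genes.

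Cells with Ggt5 or Cnmd and cells with only Inmt and Bmper were each compared with all fibroblasts outside the subset, the remaining members included. All 31 named genes outside the rule differed in the same direction in both. Those 31 were chosen for their ratios over all members, which include both subsets. The shared direction and the sizes were therefore set in part by that choice. For Cxcl14 the median log2 ratios were 2.57 and 2.11, for Ccl11 2.35 and 1.59, and for Ifi205 2.43 and 1.64. Lpl was at 1.95 and 0.83, and Dio2 at -3.10 and -2.12. Of these 31 genes, 29 lay further from 0 in the cells with Ggt5 or Cnmd. The comparison cells differed in the members they held, and the part of this in the sizes was not tested. The exceptions were Mme (1.06 and 1.72) and Limch1 (-1.78 and -2.27). These subsets were cut after the rule and were not tested against each other.

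Gene lists give the wider picture, and each was described by its members' median log2 ratio beside the -0.06 of all genes, and by its counts beside the 2.42% of all genes higher and 4.45% lower in every library. For a list of 20 genes those shares come to 1 gene or less in each direction. Of 13 measured complement genes, 5 were higher in every library and 0 lower, with a median of 0.92. The 5 were C3, C4b, the C1 proteases C1s1 (1.39) and C1ra (0.99), and factor B, Cfb (1.00). Of 16 chemokines and receptors, 5 were higher in every library and 0 lower (median 0.40). They were Cxcl14, Ccl11, the monocyte chemokine Ccl7 at 992 CPM against 408 CPM (1.17), Cxcl12, the ligand of Cxcr4, at 1164 CPM against 489 CPM (1.05), and the macrophage growth factor Csf1 (0.37).

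Of 18 steroid and lipid handling genes, 5 were higher in every library and 1 lower (median 0.36). Lpl, Apod, Angptl1 (1.19), Cyp1b1 (0.63) and Apoe, at 5724 CPM against 3651 CPM (0.53), were higher. Hsd11b1, which regenerates active glucocorticoid, was lower (-0.74). Of the 19 measured glutathione and leukotriene enzymes, the companions of Ggt5, 3 were higher in every library, and the median was -0.06, that of all genes. The 3 were Gpx3, a secreted glutathione peroxidase, at 1127 CPM against 510 CPM (1.26), Mgst1 (0.90) and Anpep (0.41). Dpep1, a dipeptidase that acts after Ggt5 on leukotriene D4, had a ratio of 0.65 and was higher in 14 of 15. Of 7 amine and methyl group enzymes, the companions of Inmt, none differed the same way in every library (median 0.22).

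The BMP list, the companions of Bmper, held 22 measured genes with a median of -0.21. Id2 was higher in every library (0.55), and Id4 (-1.73) and the ligand Bmp4 (-1.27) were lower. Of 15 Wnt genes (median -0.44), the soluble inhibitor Sfrp1 was higher in every library at 918 CPM against 462 CPM (1.00), and Frzb (-1.22) and Wnt9a (-0.70) were lower. Of 24 TGF-beta ligands, receptors, Smads and targets, 0 were higher and 7 lower in every library, with a median of -0.50. Among the 7 were Ctgf, the ligand Tgfb1 (-1.31), the targets Pmepa1 (-1.02), Cyr61 (-0.85) and Nox4 (-0.82), and the repressor Skil (-0.50). Smad3 itself was at 17.2 CPM in the members and 19.1 CPM in the other fibroblasts (-0.24).

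Of the matrix lists that follow, collagens lay near the median of all genes, at -0.02, and the rest lay lower. The 21 elastic fibre genes had a median of -0.25, and the list's sum was higher in the members in 0 of 15 libraries. Efemp1 was higher in every library, and Fbln5 (-0.46) and Fbln2 (-0.47) were lower. Eln, elastin itself (-1.23), and Ltbp2 (-2.60) were lower in 14 of 15. Of 24 collagens, Col6a6 was higher (1.00), and Col4a3 (-1.05), Col4a4 (-0.70) and Col16a1 (-0.60) were lower. Of 17 proteoglycan genes, 5 were lower and 0 higher (Fmod, Sdc1, Prelp, Bgn and Aspn), with a median of -0.21. The 12 valve interstitial and annulus genes had a median of -1.41 and the 10 cartilage genes one of -1.16, and 0 genes of either list were higher in every library, although Cnmd is itself a gene of cartilage and valves. In each list 2 genes were past a log2 ratio of -1 and lower in every library, Cytl1 and Fmod.

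General fibroblast genes were not lower. Of 12, 5 were higher in every library (Gsn 0.82, Clec3b 0.76, Tcf21 0.56, Mmp2 0.52 and Pdgfra 0.37) and Pdgfrb was lower (-0.52). Of 9 genes of parenchymal, tissue-resident fibroblasts, Lpl, Penk and Cxcl12 were past a log2 ratio of 1, and Hsd11b1 was lower. Of 10 adventitial progenitor markers, Ly6a was higher (0.75) and Sema3c lower (-0.60), and Pi16 (-0.17) and Cd34 (-0.23) lay near the median of all genes. Among 26 transcription factors of position and lineage, Ebf2 (0.95) and Tcf21 were higher and Nr2f2 (-1.01) and Foxc2 (-0.92) lower. Of 21 angiogenic and anti-angiogenic genes, Thbs2 (0.93), an inhibitor of vessel growth, and Ecm1 (0.55) were higher, and Sema3d (-1.08) and Sema3c were lower. Of 14 vasoactive genes, Ptgfr, a prostaglandin receptor (1.20), was higher, and Ptgs1 (-1.31) and Ace (-0.52) were lower. Of 20 matrix proteases and inhibitors, Mmp2 and Adamts15 (0.69) were higher and Timp3 lower (-0.58). The 10 measured retinoid genes had a median of 0.22. The 20 immediate early genes, which rise during tissue digestion, had a median of -0.01, and 1 of them, Zfp36, was higher in every library (0.41).

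**Figure D2:**
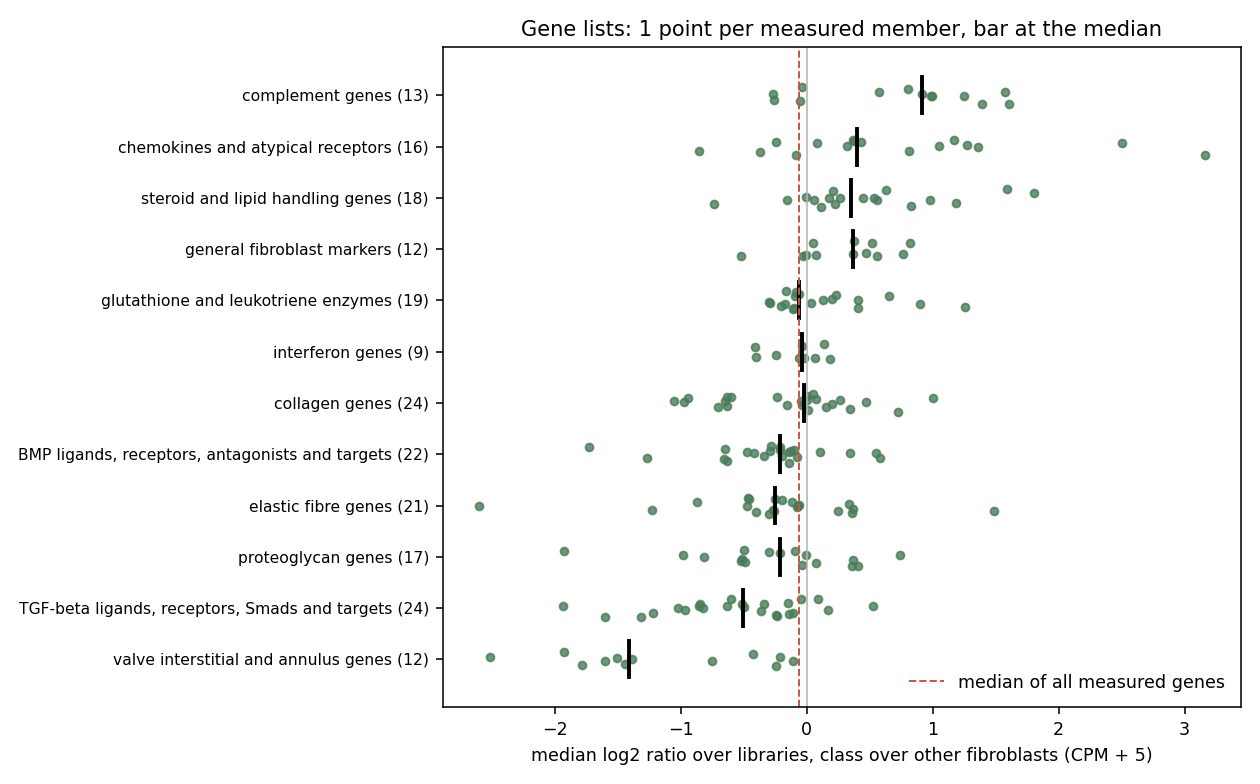
Median log2 ratio over the 15 libraries, Cnmd/Inmt/Ggt5/Bmper fibroblasts over other fibroblasts, for each measured gene of 12 lists (number of genes in parentheses), with a black bar at the list's median and a dashed line at the median of all genes (-0.06). Of these 12 lists, complement genes (0.92) lay highest and valve genes (-1.41) lowest. Lists not drawn include those of cartilage genes (-1.16) and smooth muscle markers.

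The Ifi200 cluster was taken as 13 genes looked up by name, which span chr1:173350879-174031810 (mm10, GENCODE vM21), and 7 of them were measured. The genes named here besides Ifi205 and Ifi207 were chosen after their values were seen. All 7 were higher in the members in at least 14 of 15 libraries, and 4 were higher in all 15. Those 4 were Ifi205, Ifi207, Ifi204 at 173 CPM against 60.3 CPM (log2 ratio 1.41) and Ifi202b at 102 CPM against 42.6 CPM (1.05). Ifi211 was at 139 CPM against 31.5 CPM (2.19), Mndal at 91.4 CPM against 45.6 CPM (1.07) and Ifi203 at 84.4 CPM against 53.7 CPM (0.67), each in 14 of 15. These genes are near-identical in stretches and some overlap, so reads may be shared out unevenly between them.

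The wider interferon list did not move with the cluster. Its 9 measured genes had a median log2 ratio of -0.04, with Ifit3 at -0.40, Isg15 at 0.07 and Ifi27 at 0.19, the last higher in all 15 libraries. Of 6 measured cluster genes with a promoter window, 5 (83.3%) held GAAANNGAAA, as did 9 of all 12 cluster genes with a window (75.0%), and the windows of these copies resemble each other. Of 30 genes past a log2 ratio of 1 with a window, 3 (10.0%) held it, against 2 of 53 (3.77%) of the lower genes and 243 of 6234 (3.90%) of all measured genes. The 3 were Ifi205, Ifi207 and Cxcl14, whose windows are among those shown above.

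Other gene pairs and trios have been used to label aortic fibroblasts, and the members were placed against those by the same count of at least 2 label genes. Of the members, 1289 (50.8%) also met the rule for Hsd11b1, F3 and Vegfd, which 35.5% of the other fibroblasts met, and they made up 9.77% of that group. The members' share with Has1, Spon2 and Cxcl5 was 18.1%, against 7.01% of the other fibroblasts, and they were 16.4% of that group. For Tnfrsf11b, Dio2 and Hhip the share was 1.66%, against 15.2%, and for Coch and Wif1 1.14%, against 3.65%. For Dpp4 and Smpd3 it was 0.946%, against 1.10%. Deeper cells meet any such rule more often, and the members were the deeper cells in 12 of 12 libraries at 18 weeks.

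The levels of the rule genes varied between mice inside the members. Cnmd was highest in both libraries of batch 2, at 238 CPM in Smad3+/+ replicate 3 and 418 CPM in Smad3SmKO replicate 1, and it lay between 15.2 and 165 CPM in the other 13 libraries with at least 10 members. Inmt ran from 127 to 869 CPM, Ggt5 from 54.5 to 128.4 CPM and Bmper from 103 to 227 CPM. In the 235 members of 10 weeks, Inmt was found in 77.4% and Ggt5 in 40.9%, and in the 2302 of 18 weeks in 59.2% and 64.2%. Cnmd was found in 21.3% and 16.7% and Bmper in 68.5% and 85.4%. The 10-week cells were shallower, with class medians of 3739 to 5184 UMIs per library against 9009 to 28100 at 18 weeks.

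**Figure D3:**
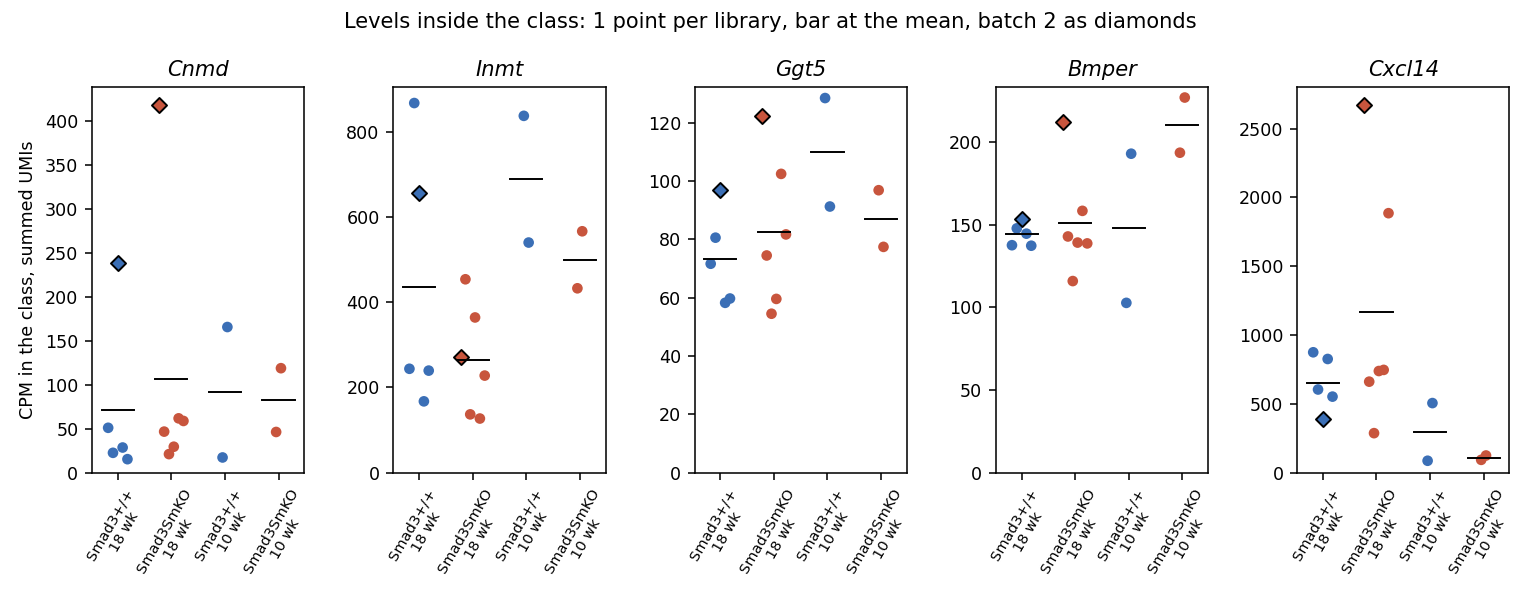
CPM of the 4 rule genes and Cxcl14 in the Cnmd/Inmt/Ggt5/Bmper fibroblasts, 1 point per library with at least 10 members and a bar at each group's mean, on linear axes from 0. Diamonds mark batch 2, whose libraries held the highest Cnmd levels (238 and 418 CPM).

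The first question between genotypes was whether these cells made up the same share of fibroblasts. In Smad3+/+ at 18 weeks the shares were 8.63% (exact 95% binomial interval 7.73 to 9.59), 17.7% (16.3 to 19.2), 21.5% (19.3 to 23.9), 8.77% (7.62 to 10.0) and 8.11% (7.15 to 9.16) in replicates 1 to 5. In the 7 libraries labelled Smad3SmKO the lowest was 1.02% (0.124 to 3.64, 2 of 196 cells), the median 6.10% and the highest 13.6%. The ranges overlapped, with the Smad3SmKO libraries of batches 2 and 3 (13.6% and 10.1%) above 3 of the 5 controls. These intervals cover counting error only.

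The mean share was 12.9% ± 6.24 (SD, n = 5) in Smad3+/+ and 6.35% ± 4.35 (n = 7) in Smad3SmKO, a difference of -6.59 percentage points (two-sided exact permutation test over 792 splits, p = 0.05429). The test did not pass 0.05. Within the 4 batches that held both genotypes the share was lower in Smad3SmKO in 4 of 4, by -5.25, -7.96, -7.59 and -2.34 points in batches 1, 2, 3 and 6. The mean within-batch difference was -5.78 points (exact permutation within batches, 36 arrangements, p = 0.02778, the smallest these arrangements allow). With each cell thinned to 2000 UMIs all shares were lower, at means of 2.57% and 1.24%. The ratio of the means (Smad3+/+ over Smad3SmKO) was 2.08 with thinned cells and 2.04 with all UMIs. The medians were 1.37% and 1.04% with thinned cells, and 8.77% and 6.10% with all UMIs. The difference in thinned means was -1.33 points pooled (exact permutation p = 0.2058) and -1.21 within batches (exact permutation p = 0.1667). Neither test passed, and batch 6 was at 0.143, in the opposite direction. The median UMIs of other fibroblasts were 10180 to 15160 in the Smad3+/+ libraries of 18 weeks and 6296 to 26330 in those labelled Smad3SmKO, and the part of depth in the share was not otherwise tested. Of all kept cells the difference was -6.12 points (exact permutation p = 0.03788). That measure also moves with the share of fibroblasts in a library. Fibroblasts were 39.1% and 31.1% of kept cells in the Smad3SmKO libraries of batch 5. They were 73.7% to 86.6% in Smad3+/+ at 18 weeks and 74.4% to 86.6% in the remaining Smad3SmKO libraries. The part of this in the difference was not tested.

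The pooled difference depended on single libraries. Leaving out 1 library at a time it ran from -7.80 to -4.45 points, with exact permutation p from 0.01732 to 0.1424, and it passed 0.05 without Smad3+/+ replicate 1, 4 or 5 or without Smad3SmKO replicate 1. The within-batch difference ran from -6.93 to -5.06 points and was negative in every batch. Its p was the smallest the arrangements allow in each case, up to 0.08333, so without Smad3+/+ replicate 1, 2 or 3 or Smad3SmKO replicate 1, 4 or 6 the test could not reach 0.05. The digestion time moved with the share too. At 18 weeks every library digested for 60 min was labelled with the GFP tracer and none digested for 30 min was. Digestion time, tracer label and batch can therefore not be told apart. In the libraries of 18 weeks digested for 30 min the share ran from 2.72% to 21.5%, and in those digested for 60 min from 1.02% to 8.77%. With thinned cells these ranges were 0.373% to 5.73% and 0 to 1.16%, the 0 being 0 of 196 cells, which allows up to 1.53%. At 10 weeks, all at 60 min, the shares were 2.14% and 3.12% in Smad3+/+ and 1.81% and 2.33% in Smad3SmKO, and the thinned shares ran from 0.634% to 1.28%.

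**Figure D4:**
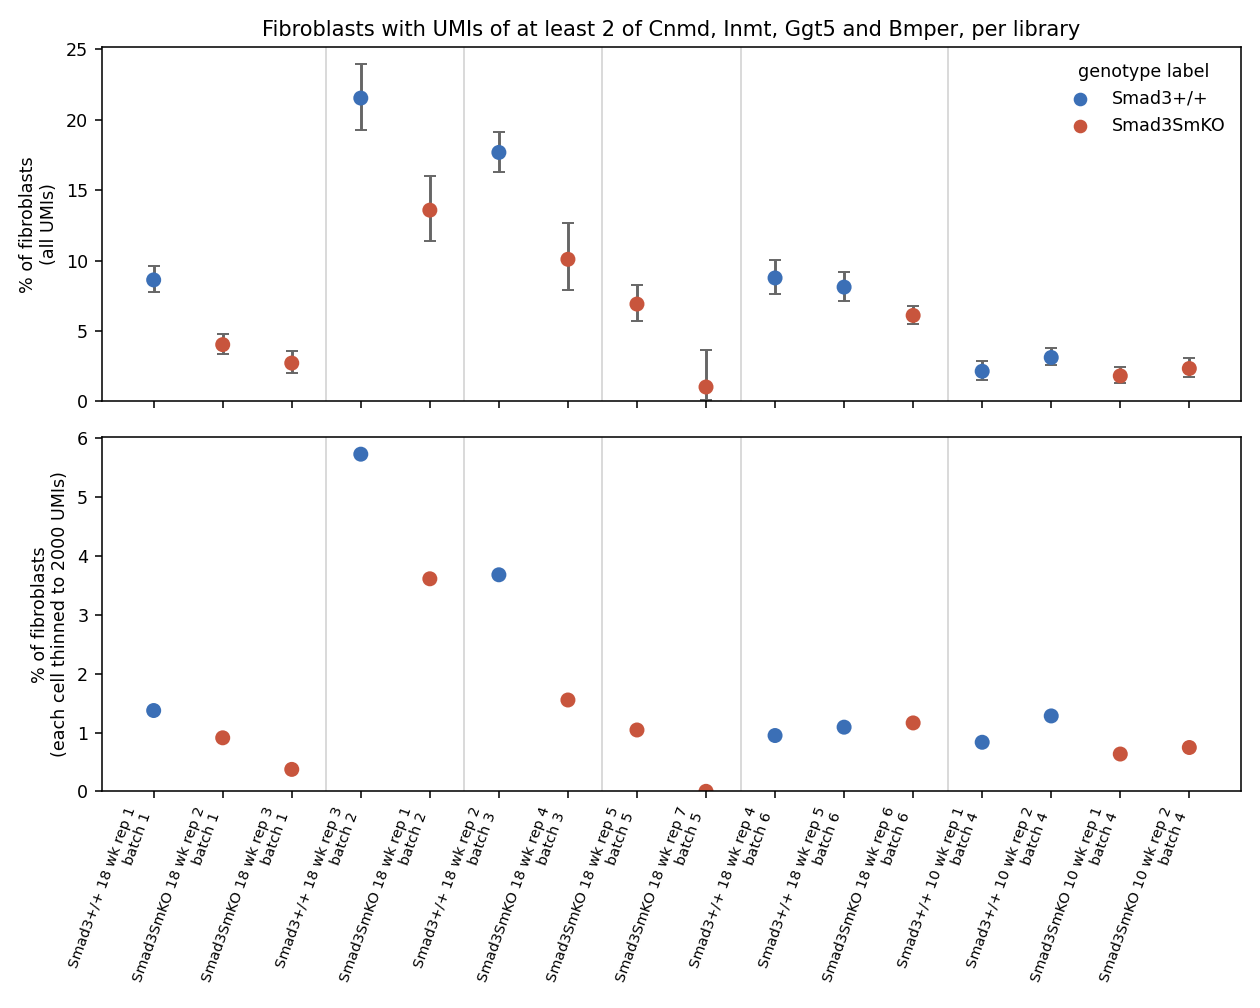
Share of fibroblasts that were Cnmd/Inmt/Ggt5/Bmper fibroblasts in each of the 16 libraries, grouped by batch, with all UMIs and exact 95% binomial intervals (upper panel) and with each cell thinned to 2000 UMIs (lower panel). In batches 1, 2, 3 and 6 every library labelled Smad3SmKO lay below the Smad3+/+ libraries of its batch in the upper panel, and batch 6 did not show this in the lower panel.

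The second question was whether the rule genes and Cxcl14 differed by genotype. Inside the members the rule sets their levels, so the summed counts of all fibroblasts were used, an addition made after the data were seen. Inmt was at 131.4 ± 98.1 CPM in Smad3+/+ (n = 5) and 57.7 ± 42.3 CPM in Smad3SmKO (n = 7) at 18 weeks. Ggt5 was at 15.4 ± 9.35 and 9.34 ± 8.53 CPM, Bmper at 47.0 ± 10.0 and 35.5 ± 19.4 CPM, Cnmd at 15.1 ± 24.5 and 14.2 ± 29.3 CPM, and Cxcl14 at 159 ± 65.6 and 283 ± 213 CPM. None of the 5 passed a test. Exact permutation p ran from 0.1124 for Inmt to 0.851 for Cnmd, with adjusted p over the 5 genes of 0.3425 for Inmt. In edgeR's quasi-likelihood test over 14626 genes the log2 changes (Smad3SmKO over Smad3+/+) were -0.60 ± 0.57 (SE) for Inmt, -0.60 ± 0.44 for Ggt5, -0.24 ± 0.38 for Bmper, -0.20 ± 0.64 for Cnmd and 0.25 ± 0.67 for Cxcl14, each with adjusted p of 0.9999. That test called 0 of 14626 genes, and 363 had an unadjusted p under 0.05.

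The third question was whether other genes differed by genotype inside the members. Summed counts of 5 Smad3+/+ and 6 Smad3SmKO libraries at 18 weeks were compared with edgeR's quasi-likelihood test with batch as a term, and Smad3SmKO replicate 7, with 2 members, was left out. Smad3SmKO replicate 5 was then the only library of batch 5, so a batch term fitted it alone. It gave no information on the genotype effect. The test called 4 of 11418 genes (0.035%) at an adjusted p under 0.05, all higher in Smad3SmKO. An unadjusted p under 0.05 was found for 317 genes (2.78%). DESeq2's Wald test, a fit with no batch term and the 30 min digestions alone each called 0 genes, and without Smad3SmKO replicate 6 the test called 1 gene, which was none of the 4. The 4 were S100a8 (adjusted p = 0.004025), S100a9 (0.01801), Retnlg (0.004025) and Wfdc21 (0.008135). S100a8 and S100a9 form calprotectin, the major protein of neutrophils, and Retnlg is a resistin-like hormone of neutrophils and other myeloid cells.

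Most UMIs of these 4 genes came from few cells, while Wfdc21 in Smad3SmKO replicate 1 was spread wider. Their sums over the members were 8, 8, 10, 21 and 55 UMIs in Smad3+/+ replicates 1 to 5, and 168, 290, 12, 0, 659, 1654 and 0 in Smad3SmKO replicates 1 to 7. In Smad3SmKO replicate 2 all 290 UMIs lay in 1 cell, and in replicate 6 1623 of 1654 (98.1%) did. In replicate 5, which did not inform the test, the highest cell held 250 of 659 (37.9%), and in replicate 1 57 of 168. Wfdc21 gave 152 of those 168, in 20 of the 124 members. Members with at least 3 UMIs of the genes numbered 1, 0, 0, 0 and 2 in Smad3+/+ and 11, 1, 0, 0, 6, 2 and 0 in Smad3SmKO. Without Smad3SmKO replicate 1 they made up 9 of 684 members (1.32%) in that group, against 20 of 808 (2.48%) with it. The share of other fibroblasts with at least 3 ran from 0 to 0.445% in Smad3+/+ and from 0 to 3.85% in Smad3SmKO. The highest was Smad3SmKO replicate 5, with 55 of 1428 cells. Wfdc21 had 0 UMIs in all 5 Smad3+/+ libraries, so no fold is given.

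Leukocyte markers were followed in the same cells. The 9 leukocyte markers, which include S100a8, summed to between 9.52 and 90.9 CPM in the members of Smad3+/+ and between 9.77 and 418 CPM in those of the 6 Smad3SmKO libraries. Without S100a8 the sums ran from 9.24 to 89.5 CPM and from 4.19 to 310 CPM, with medians of 54.3 and 55.1 CPM, and Cd3e was at 0 in both groups. The part of leukocyte RNA in the calls was not tested. Leaving out cells with at least 3 UMIs of other lineages' markers gave 0 calls, but those markers include S100a8, so that filter removes cells by one of the called genes. The fifth gene by p, Npy, a neuropeptide, was not called (adjusted p = 0.1598). It had 108, 7, 17, 2 and 0 UMIs in Smad3+/+ and 0 in every library labelled Smad3SmKO.

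**Figure D5:**
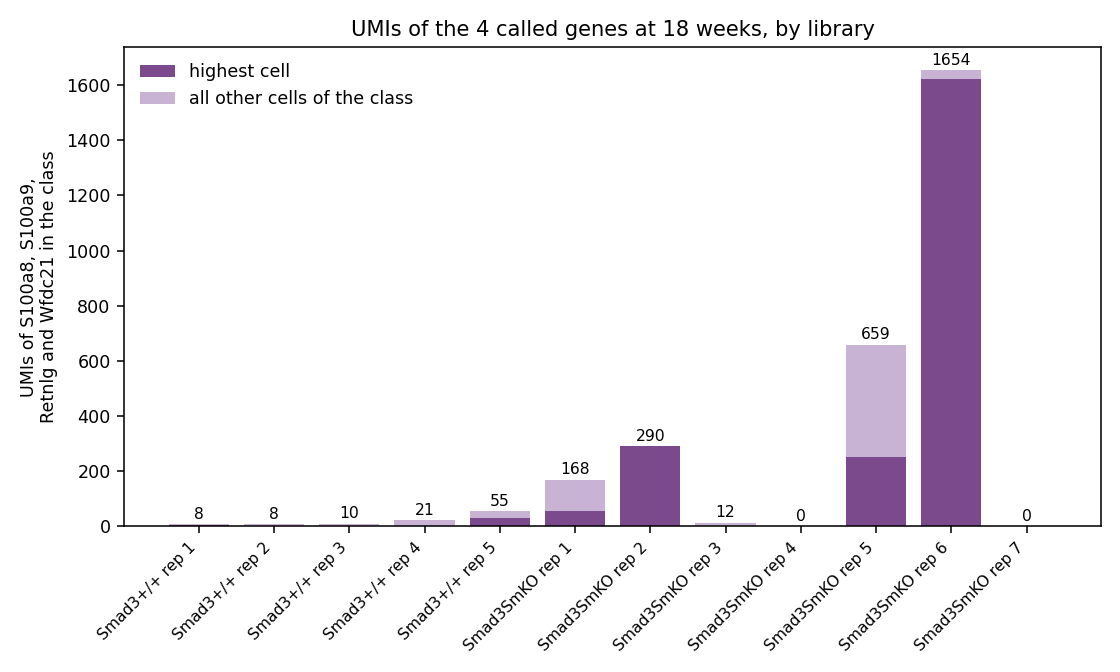
Summed UMIs of S100a8, S100a9, Retnlg and Wfdc21 in the Cnmd/Inmt/Ggt5/Bmper fibroblasts of each 18-week library, on a linear axis from 0, with the single highest cell in dark purple and all other members in light purple. In Smad3SmKO replicates 2 and 6 nearly all UMIs (290 of 290 and 1623 of 1654) came from 1 cell.

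Of the 33 fixed lists with a tested gene, 32 held no called gene, the leukocyte markers being the other one. Their medians ran from -1.42 to 0.52, with the lowest in 3 plasma cell transcripts. The 11 tested interferon genes had a median log2 change of 0.52, the highest, with 4 at an unadjusted p under 0.05 and 0 called. The 24 TGF-beta genes had a median of 0.11, with 4 at an unadjusted p under 0.05 and 0 called. Complement, chemokine and BMP genes had medians of 0.12, 0.27 and 0.02. At 10 weeks, with 2 libraries in each group, edgeR's quasi-likelihood test called 0 of 11418 genes, with 432 at an unadjusted p under 0.05. DESeq2's Wald test called 5.

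The last question was whether the genotype effect in the members differed from that in the other fibroblasts of the same libraries. The other fibroblasts alone gave 0 called of 15077 genes (533 at an unadjusted p under 0.05, and 8 called by DESeq2's Wald test). The test of the difference called 0 of 13435 genes by edgeR's quasi-likelihood test, with 603 at an unadjusted p under 0.05 and 1 called by DESeq2's Wald test. The lowest p was that of Fst, follistatin, which binds activins and BMPs outside the cell. Its effect in the members minus that in the other fibroblasts was -1.22 ± 0.21 on the log2 scale, with an adjusted p of 0.3735, so it did not pass. In the other fibroblasts Fst was at 91.7, 70.8, 55.9, 69.0 and 100.4 CPM in Smad3+/+, and from 79.3 to 286 CPM in the 6 Smad3SmKO libraries. In the members it ran from 119 to 190 CPM in Smad3+/+ and from 83.8 to 246 CPM in Smad3SmKO. The other 4 genes with the lowest p, Tnfsf9, Fbln5, C1qtnf2 and Galnt15, had adjusted p of 1.

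The labels could be checked only in part. Smad3 in cells gated as smooth muscle was at 2.83 to 9.89 CPM in Smad3+/+ and 4.04 to 17.3 CPM in Smad3SmKO at 18 weeks, and at 4.69 to 5.40 and 5.19 to 8.08 CPM at 10 weeks. A 3' tag may lie outside the deleted part, so these counts do not check the deletion. Smad3 in the members differed by a log2 change of 0.39 ± 0.20, which did not pass (adjusted p = 0.9998). GFP counts went against the tracer label in 4 libraries, and the members held 6 GFP UMIs in all. No pair of libraries shared more than 11 cell barcodes.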

How the data were processed

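The authors deposited UMI counts per gene and cell barcode for each library (31055 features), made per the labels with Cell Ranger version 6 on mm10, while the file headers name version 4.0.0, and not normalized. Cells were kept with over 600 and under 6000 genes, over 2000 and under 50000 UMIs and under 25% mitochondrial UMIs. Doublets were removed only by those upper limits. Libraries held 12539539 to 52843031 UMIs, and the members' summed counts 193863 to 7140065 in the 15 libraries with at least 10 members. The members and gene lists were chosen with earlier results of these data known. Genotypes were compared on summed counts with edgeR 4.0.16 (TMM scaling, quasi-likelihood test, batch as a term, filter on low counts, Benjamini-Hochberg adjustment at 0.05) in R 4.3.3. Where batch was a term, a batch of a single genotype did not inform the genotype effect. DESeq2 1.42.0 was an alternative. Shares were compared by exact permutation in SciPy 1.17.1 (Python 3.11.15). Each library was 1 mouse, so p-values measure the spread between mice. On simulated counts the genotype fit in the members recovered 44% of changes of log2 size 1 and 98% of size 2 over 10969 genes, with 10 false calls, and the fit of the difference 51% and 100% over 11835, with 9. The changed genes were drawn only from those with the highest counts, with a fixed spread and no batch effect. Recovery for fainter genes or with batch effects was not tested.

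Log2 ratios of members over other fibroblasts used CPM plus 5 and genes with a mean of at least 10 CPM. The genes named were the rule genes, Cxcl14, Dcn, Myh11, Smad3 and GFP, then the 20 genes at 20 CPM or more with the highest ratio and the 15 with the lowest that went the same way in every library (mitochondrial and ribosomal protein genes left out). To these were added the genes that passed a genotype test or, where under 5 passed, the 5 with the lowest p, and any gene of a list where the list is described. Of 596 list genes, 3 had no feature. Cells were not clustered, and the authors' cell names were not used here. A few list genes are not reported here.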

Additional observations from a re-analysis of the deposited data

Results flagged for a closer look

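Of 102 groups of 4 to 10 libraries examined, 20 held 1 library far from the rest by Dixon's criterion. For independent, normally distributed values chance alone gives about 1 group in 20. Most groups were CPM values of genes in the same libraries and need not be normal or independent, so that rate may not hold here. All concern the libraries of 18 weeks. The thinned share was 3.61% in Smad3SmKO replicate 1, and the next library was at 1.55%.

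Cnmd in the members was at 237.9 CPM in Smad3+/+ replicate 3, next to 50.9 CPM, and at 417.8 CPM in Smad3SmKO replicate 1, next to 61.6 CPM. Both libraries are batch 2. Penk was at 632.3 CPM in Smad3+/+ replicate 3, and the next was 350.7 CPM.

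Smad3+/+ replicate 5 stood apart for 7 genes. C3 was at 3516 CPM, Sned1 at 89.2 CPM, Dio2 at 25.7 CPM, Cytl1 at 328.2 CPM, Cpxm2 at 41.4 CPM, Fst at 190.1 CPM and Myh11 at 25.7 CPM.

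In other Smad3+/+ libraries, Aox3 was high in replicate 2 at 93.8 CPM and Lamc3 low in the same library at 4.90 CPM. Tnnt2 was at 26.5 CPM and Npy at 24.1 CPM in replicate 1.

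Among the libraries labelled Smad3SmKO, GFP was at 1.53 CPM and Galnt15 at 102.5 CPM in replicate 6. Fmod was at 125.7 CPM in replicate 5, Lmcd1 at 65.8 CPM in replicate 2 and Wfdc21 at 81.9 CPM in replicate 1. The causes were not tested.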

How the results depend on the processing

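Inside the members at 18 weeks the 4 genes called by genotype became 72 with no filter on low counts, 13 with the 60 min digestions alone, and 0 with the 30 min digestions alone, with no batch term, with DESeq2's Wald test or without cells holding other lineages' UMIs. Leaving out 1 library gave 1 to 5 calls, the 1 without Smad3SmKO replicate 6, and it was none of the 4. At 10 weeks the 0 calls became 27 with no filter, 5 with the Wald test, and 0 to 1 without 1 library (1 without Smad3SmKO replicate 2). In the other fibroblasts the Wald test called 8. For the difference between them the 0 became 1 with no filter, with the Wald test or with at least 3 rule genes, 2 at 60 min, and 0 to 1 without 1 library (1 without Smad3+/+ replicate 3 or Smad3SmKO replicate 1). The cause of these changes was not tested. The pooled share difference was -6.125 points of all kept cells and -7.802 to -4.446 without 1 library. The within-batch difference was -1.209 with thinned cells, -4.494 with 5 genes (exact permutation p = 0.25), -6.933 at 30 min, -2.337 at 60 min and -6.933 to -5.059 without 1 library. With 1 digestion time, or without 1 of 6 of the libraries, the arrangements are too few to reach 0.05. With at least 3 rule genes 72 genes were higher (34 shared with the 45) and 199 lower (52 shared with the 68). Higher genes numbered 28 with cells of 5000 to 15000 UMIs (23 shared) and 25 with thinned cells (18 shared). Smad3 in the other fibroblasts changed sign at 60 min (-0.183), with no batch term (-0.0087) and without Smad3+/+ replicate 2 or Smad3SmKO replicate 4 (range without 1 library -0.074 to 0.217), and Spp1 at 10 weeks did so without Smad3SmKO replicate 1 (-4.98). The labels give no replicate numbers that pair mice across genotypes, and batch served as the block. At least 3 rule genes left too few cells at 10 weeks, so that fit was not run.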

Other observations

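A few genes of the fixed lists were higher in the members in most but not all of the 15 libraries and are given here as values, with no test. Growth factors that fibroblasts send to epithelial and vessel cells were among them. Fgf10 was at 19.2 CPM in the members and 4.15 CPM in the other fibroblasts, with a median log2 ratio of 1.47, higher in 14. Fgf7 was at 59.8 and 29.0 CPM (1.01, higher in 14), and Angpt1, a ligand of the endothelial receptor Tie2, at 49.3 and 24.3 CPM (0.84, higher in 14). Rspo1, which strengthens Wnt signals, was at 20.3 and 4.77 CPM (1.36, higher in 13). Aoc3, an amine oxidase, was at 24.6 and 9.21 CPM (1.01, higher in 14). The complement inhibitor Cfi was at 33.8 and 10.4 CPM (1.25, higher in 13), and the chemokine Ccl8 at 51.6 and 16.1 CPM (1.28, higher in 14). In the other direction Tnfrsf11b, the decoy receptor osteoprotegerin, was at 22.2 CPM in the members and 134 CPM in the other fibroblasts (-3.12, lower in 14), and the transcription factor Meox1 at 20.0 and 79.2 CPM (-1.99, lower in 14).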
